A study of Mus musculus with 18 samples.

Results

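The genes described are 36 named genes of the type I interferon response, followed over 18 expression arrays of embryonic mouse microglia. Of these, 34 had a probe set that names no other gene, and each was represented by the probe set with the highest mean. Isg15 was covered only by a probe set shared with another gene and Ifi44 by no matched probe set, so neither was measured here. Mx2 and Cmpk2 fell under a filter on low values (a mean log2 value of 2.49 over the arrays), which left 32 of 36 members among 11630 tested genes, out of 18194 genes with a probe set of their own. The members that passed did so through any array on which they were high, and 32 of 32 therefore describes the measurable genes only.

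Microglia are the resident macrophages of the brain. Here they came from pooled hippocampi of embryos at E17.5 on a C57BL/6 background, sorted for GFP driven from the Cx3cr1 locus in all 4 groups, with RNA pooled per dam and the sex of the embryos unknown. The 4 LPS arrays are wild type embryos of dams given the endotoxin lipopolysaccharide, with dose, route and timing not stated in the labels, and the 4 PBS arrays are their wild type controls. The 4 DAP12KO arrays are untreated DAP12-/- embryos, which lack the signalling adaptor DAP12, encoded by Tyrobp. The 6 UT arrays are untreated wild type embryos. Array labels end in a year, written as in the labels: _2012 (2 arrays) and _2013 (4 arrays) for UT, _2013 for all DAP12KO arrays, and _2008 (1 array), _2010 (2 arrays) and _2013 (1 array) for both LPS and PBS. Arrays are called by group and label number, for example DAP12KO array 2, and UT array 6 is the one labelled UT-6_2013.

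Type I interferons (interferon beta and the interferon alphas) are secreted after pattern receptors sense viral nucleic acid or endotoxin. They bind the receptor Ifnar1/Ifnar2, which activates the kinases Jak1 and Tyk2, and a complex that includes Stat2 and Irf9 then enters the nucleus and binds interferon-stimulated response elements in the promoters of its targets. The targets include antiviral effectors, the sensors of viral RNA, and Irf7, a factor that amplifies interferon production. In the adult brain microglia are among the cells that mount this response.

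Promoter sequence shows what several members have in common that the choice of genes did not use. The RefSeq table of promoters (build GRCm38.p6) held 26 of the 36 member genes. The core of the response element, GAAANNGAA on either strand (N is any base, and overlapping matches were counted), stood within 250 bases before a start site in 10 of the 26 (38.5%), against 8.18% of 27025 genes in the table. Those 10 genes were Ifit1, Ifit3, Rsad2, Oas1a, Oas3, Isg15, Ifih1, Stat2, Bst2 and Cxcl10. The 5 promoters shown were taken from these 10 genes. No match stood in the windows of 14 tested members, among them Irf7, Oasl1, Oasl2, Ifi35 and Isg20. Each is printed 5′ to 3′ in the direction of the gene and ends at the base before its start site, and the capitals mark the matches, which are the reverse complement where the motif lies on the opposite strand. The windows are chr19:34640639-34640888 (plus strand) for Ifit1, chr19:34583279-34583528 (plus) for Ifit3, chr12:26456453-26456702 (minus) for Rsad2, chr5:92348890-92349139 (minus) for Cxcl10 and chr8:71537473-71537722 (minus) for Bst2.
Ifit1: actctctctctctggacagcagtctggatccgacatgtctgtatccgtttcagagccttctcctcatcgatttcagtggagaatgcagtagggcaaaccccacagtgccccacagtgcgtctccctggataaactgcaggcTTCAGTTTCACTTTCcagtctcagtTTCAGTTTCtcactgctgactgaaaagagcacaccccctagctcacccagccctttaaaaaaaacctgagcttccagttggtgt
Ifit3: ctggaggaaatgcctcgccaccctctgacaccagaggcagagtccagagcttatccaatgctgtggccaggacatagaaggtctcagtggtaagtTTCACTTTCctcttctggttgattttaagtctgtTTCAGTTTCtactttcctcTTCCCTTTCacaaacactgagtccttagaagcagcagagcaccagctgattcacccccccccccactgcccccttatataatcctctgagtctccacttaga
Rsad2: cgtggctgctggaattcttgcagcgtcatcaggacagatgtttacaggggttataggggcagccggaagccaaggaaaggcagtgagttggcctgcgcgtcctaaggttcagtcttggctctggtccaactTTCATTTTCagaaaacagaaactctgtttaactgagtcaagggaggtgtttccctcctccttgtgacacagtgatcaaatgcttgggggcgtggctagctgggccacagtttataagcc
Cxcl10: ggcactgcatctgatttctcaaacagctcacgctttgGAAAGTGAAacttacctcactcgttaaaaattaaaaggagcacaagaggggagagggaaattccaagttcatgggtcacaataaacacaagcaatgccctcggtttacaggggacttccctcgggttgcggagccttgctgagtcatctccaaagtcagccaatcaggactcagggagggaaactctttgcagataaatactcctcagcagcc
Bst2: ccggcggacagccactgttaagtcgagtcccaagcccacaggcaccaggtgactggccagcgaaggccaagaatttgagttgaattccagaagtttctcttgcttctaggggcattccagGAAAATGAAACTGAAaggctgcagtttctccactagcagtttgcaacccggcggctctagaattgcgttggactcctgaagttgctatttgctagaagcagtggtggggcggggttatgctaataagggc
Ifit1 and Ifit3 each held 3 matches, beginning 109, 103 and 84 bases before the start in Ifit1 and 155, 121 and 102 bases before it in Ifit3. Bst2 held 2 overlapping matches at 130 and 124 bases, Rsad2 a single match at 119 bases, and Cxcl10 a single match at 213 bases. A match describes the letters of the window and is not a measured binding site, and a window without one says nothing about the factor.

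The values of the members were set more by single arrays than by the groups. DAP12KO array 2 held the highest value of the 18 arrays in 22 of the 32 members, against 5.92% of all tested genes, and stood 1 or more log2 units (at least 2-fold) above the gene's median in 29 of 32, against 13.2%. Its median deviation from the members' medians was 3.44 log2 units, against 0.01 over all tested genes. UT array 6 stood 1 or more units above the median in 22 of 32 members, against 11.2% of all genes, with a median deviation of 1.96. Above the median by any amount were 31 of 32 members on DAP12KO array 2 and 28 of 32 on UT array 6, against 51.0% and 43.9% of all genes. DAP12KO array 4 stood 1 or more units above the median in 14 of 32, against 16.4%, with a median deviation of 0.49. At the other end, the 2 PBS arrays labelled _2010 lay below the median in 29 of 32 members each, against 37.3% and 44.6% of all genes, with median deviations of −1.02 and −1.45, although over all genes the medians were 0.16 and 0. They lay 1 or more units below it in 16 and 20 of 32, against 12.5% and 15.9%. The remaining 13 arrays had median deviations between −0.29 and 0.21.

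**Figure D1:**
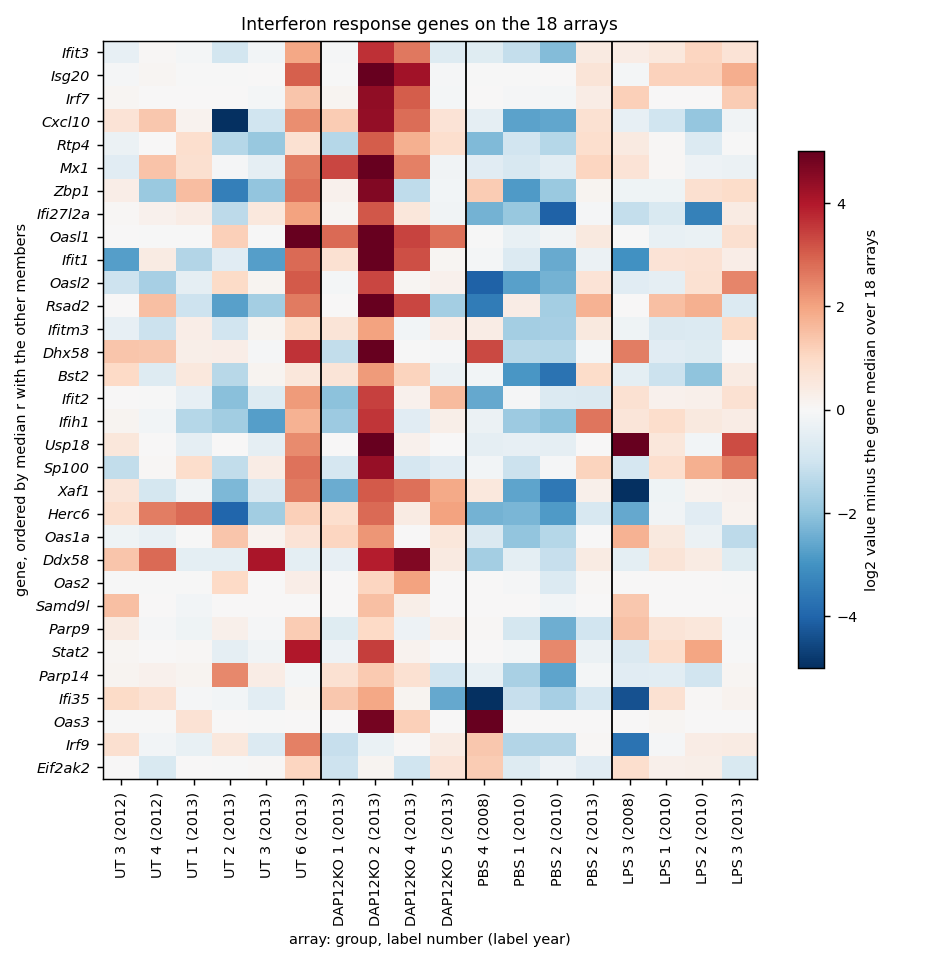
Each cell is the log2 value of a member (row) on an array (column) minus that gene's median over the 18 arrays, with vertical lines between UT, DAP12KO, PBS and LPS. On DAP12KO array 2 (red) 31 of 32 members lie above their median and on UT array 6 28 do, while on each of the 2 PBS arrays labelled _2010 (blue) 29 lie below it.

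**Figure D2:**
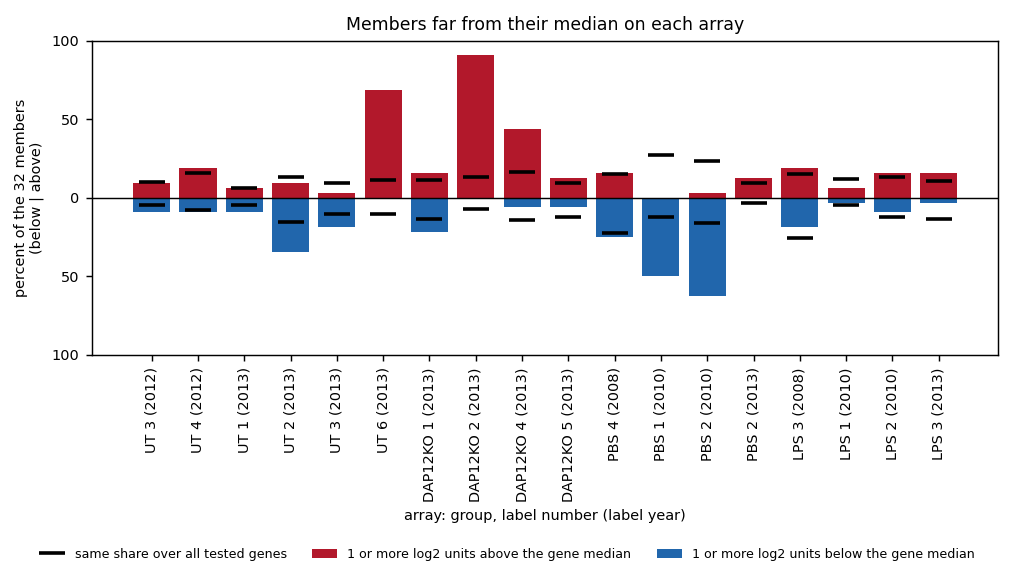
Bars give, for each array, the percent of the 32 members lying 1 or more log2 units above (upward) or below (downward) their median, and black dashes give the same share over the 11630 tested genes. DAP12KO array 2 reaches 90.6% upward and UT array 6 reaches 68.8%, while the PBS arrays labelled _2010 have 16 and 20 of 32 members downward.

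Within its own group DAP12KO array 2 stood apart in the same way. It exceeded the mean of the other 3 DAP12KO arrays in 31 of 32 members, by a median of 2.86 log2 units (range −0.11 to 6.28), whereas the median over all genes was 0.08 and 54.8% of genes lay above 0. UT array 6 exceeded the mean of the other 3 UT arrays labelled _2013 in 29 of 32 members, by a median of 2.40 (range −1.54 to 4.70), with 47.3% of all genes above 0. The exceptions are named: Irf9 was the only member lower on DAP12KO array 2 than on its group's other arrays, and Oas3, Ddx58 and Parp14 were lower on UT array 6.

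The levels of other cell types on these arrays were measured beside the members. The mean of 18 tested microglia markers was 13.45 on DAP12KO array 2 and 13.39 on UT array 6, within the range of 13.30 to 13.58 of the UT and DAP12KO arrays, and Cx3cr1 was 13.24 and 13.19. Neuron markers (20 of 20 tested) averaged 6.61 and 7.0 there, within 5.78 to 7.33 for UT and 6.06 to 6.90 for DAP12KO. Plasmacytoid dendritic cell markers, from a cell type that secretes much type I interferon, averaged 7.92 and 8.12, within 7.19 to 8.23 over all 18 arrays. This mean took 6 of the 8 markers, without Bst2 and Irf7, which are members. Siglech, among the 6, is also on the microglia list, and 3 of the 6 had an array under the filter value. The mean thus does not separate such cells from microglia. Neural progenitor markers (12 of 12 tested) averaged 8.26 on DAP12KO array 2, above the 6.08 to 7.73 of the other UT and DAP12KO arrays, and 7.68 on UT array 6. Of 10 lymphocyte markers 0 passed the filter, and of 10 monocyte and neutrophil markers 3 did, with means of 3.90 and 4.01. The latter, on UT array 6, was the highest of the UT and DAP12KO arrays, and the range over all arrays was 2.67 to 4.74. Border-associated macrophage markers (8 of 8) averaged 7.55 on DAP12KO array 2 and 9.70 on UT array 6, the latter above the 7.05 to 9.29 of the other UT and DAP12KO arrays and within the 9.83 reached over all 18. The part of these markers in the member values of the 2 arrays was not tested. The Gapdh 3′ minus 5′ difference, which is larger in degraded RNA, was 1.03 and 0.99, among the low values of a range from 0.89 to 3.33.

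The 2 PBS arrays labelled _2010 differed from the rest in these markers. Microglia markers averaged 11.28 and 11.61 on them, against 12.53 to 13.58 on the other arrays. Neuron markers averaged 10.24 and 10.33, against at most 8.75 elsewhere, and progenitor markers 11.04 and 11.22, against at most 8.92. The Gapdh 3′ minus 5′ difference was 2.46 and 3.33, the latter the highest of the 18 arrays. In RNA from sorted pools, fewer cells of a type and less RNA per cell cannot be told apart. The part of these markers and of RNA quality in the low member values of these 2 arrays was not tested. Fits without these arrays and with the neuron markers as a covariate are given below. The probe set of Tyrobp read 13.75 to 14.23 on the DAP12KO arrays and 14.29 to 14.55 on the UT arrays, and where it lies relative to the deletion is not stated in the labels, so it does not check the genotype.

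The comparison of LPS with PBS asks whether inflammation of the dam alters microglial gene expression in the embryo. No member passed the test: 0 of 32, against 0.0946% of the tested genes (11 of 11630). The members were nonetheless mostly above 0, with 29 of 32 higher in the LPS arrays on the fitted difference against 42.2% of all genes, and 11 of 32 more than 1 log2 unit higher against 6.36%. The median member difference was 0.71 log2, against −0.12 over all genes. With each array centred on its median, 30 of 32 members and 58.1% of all genes were above 0, with medians of 0.97 and 0.15. The fit was limma's moderated test with group and label year as terms over all 18 arrays, two-sided, with Benjamini-Hochberg adjustment over 11630 genes and a threshold of 0.05. An unadjusted p below 0.05 was reached by 4 of 32 members, all higher, against 12.4% of all genes in either direction and 3.47% higher.

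These values rested mainly on the arrays labelled _2010. Among the arrays labelled _2010, with 2 a group, 31 of 32 members were higher in LPS and the median difference was 1.25, against −0.11 over all genes. Among those labelled _2008, with 1 a group, it was 16 of 32 with a median of 0.01, against 0 over all genes. Among those labelled _2013, again with 1 a group, it was 19 of 32 with a median of 0.24, against −0.06. Without the 2 PBS arrays labelled _2010 the fit gave 18 of 32 members above 0 with a median of 0.13, against 44.2% of all genes. That fit leaves the LPS arrays labelled _2010 without a control of their year. Its difference thus comes from 1 array a group in each of _2008 and _2013, as in every fit below without these 2 arrays. Leaving out all arrays labelled _2010 gave the same 18 of 32 and 0.13. Such a fit cannot tell the PBS arrays from the year as a whole. With 1 array labelled _2010 left out at a time, the median was 0.67 and 0.46 (PBS arrays 1 and 2) and 0.51 and 0.64 (LPS arrays 1 and 2). With the mean of the neuron markers as a covariate the median was 0.33, and 19 of 32 members were above 0, against 44.2% of all genes.

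The ADP-ribosyltransferase Parp9, which takes part in the interferon response together with Dtx3l, had the lowest p of the members. It stood at 10.15, 9.33, 9.26 and 8.62 on the LPS arrays labelled _2008, _2010 (arrays 1 and 2) and _2013, and at 8.74, 7.82, 6.23 and 7.73 on the PBS arrays in the same order. The LPS array exceeded the PBS level of its year in every year, by 1.41, 2.27 and 0.89, but the groups overlapped, since the LPS array labelled _2013 lay below the PBS array labelled _2008. The fitted difference was 1.71 ± 0.50 (SE, n = 4 arrays a group; limma adjusted p = 0.194). With arrays weighted by their quality it was 2.10 and passed (adjusted p = 0.0146), in a fit that called 826 of 11630 genes. The weights ran from 0.27 on both arrays labelled _2008 to 2.425 on LPS array 1 labelled _2010. Over the fits that left out an array the adjusted p of Parp9 ran from 0.109 to 0.463. In the UT arrays Parp9 ran from 8.48 through a median of 8.78 to 9.94, so that the PBS arrays were the lower of the control groups.

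Oasl2, a member of the oligoadenylate synthetase-like family, was higher in LPS than in PBS in each label year. The LPS arrays labelled _2008, _2010 (both arrays) and _2013 read 6.98, then 7.11 and 8.29, and 9.97, and the PBS arrays 3.50, 4.83 and 5.18, and 8.24. Within years LPS was higher by 3.48, 2.69 and 1.73, with the PBS array labelled _2013 inside the LPS range. The fitted difference was 2.65 ± 0.83 (adjusted p = 0.216).

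Ifi35, an interferon-induced leucine zipper protein, read 6.75, 11.89, 11.17 and 11.31 in LPS and 2.28, 9.98, 9.45 and 10.29 in PBS, in the same order. Both arrays labelled _2008 were far below the others, and the PBS one was near the floor of the measurement, the log2 value of 2.49 under which values carry little signal. Its difference was 2.28 ± 0.76 (adjusted p = 0.238). On its further probe sets the sign turned in the years _2008 and _2013. These read 3.08 and 4.56 in LPS labelled _2008, against 4.89 and 5.33 in PBS. Those labelled _2013 read 4.77 and 4.59 in LPS, against 6.32 and 5.11 in PBS. Among the arrays labelled _2010, LPS was higher on both: 6.77 and 7.26 against 4.41 and 4.72, and 7.03 and 7.37 against 4.47 and 4.67.

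Usp18, the protease that removes Isg15 from proteins and dampens receptor signalling, was near the floor on 3 of 4 PBS arrays (2.19, 2.22, 2.19 and 2.63). In LPS it read 8.37, 3.20, 2.51 and 5.90, so its excess of 2.69 ± 1.25 (adjusted p = 0.397) came mainly from the arrays labelled _2008 and _2013. It was 1.52 without either array labelled _2008 and 4.72 without the 2 PBS arrays labelled _2010. The years _2008 and _2013 are those in which the median member differed least.

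Oas1a, an oligoadenylate synthetase that activates RNase L, read 9.27, 8.04, 7.27 and 6.25 in LPS and 6.83, 5.56, 6.12 and 7.55 in PBS. The sign turned in the _2013 pair, where the difference was −1.30, after 2.44 and 1.81 in the other years. The fitted difference was 1.19 ± 0.64 (adjusted p = 0.453). It was 0.78 without either array labelled _2008, 2.02 without either labelled _2013 and 0.57 without the 2 PBS arrays labelled _2010.

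Ifit3, an antiviral protein, read 9.69, 9.84, 10.39 and 10.01 in LPS, the narrowest spread of any group, and 8.74, 8.13, 7.15 and 9.79 in PBS. All but the PBS array labelled _2013 lay below the LPS range. The difference was 1.53 ± 0.84 (adjusted p = 0.466), and 0.59 without the 2 PBS arrays labelled _2010. Ifit2, a relative of Ifit3, was the only one of the 32 members whose LPS (8.93 to 9.49) and PBS (6.17 to 8.67) arrays did not overlap, against 1.96% of all genes, and its difference was 1.5 ± 1.0 (adjusted p = 0.559).

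The comparison of DAP12KO with UT asks what loss of the adaptor does in untreated embryos. Again 0 of 32 members passed, as did 0 of all 11630 genes (0.0%), with 637 genes (5.48%) and 4 members at an unadjusted p under 0.05. Those 4 members were all higher in DAP12KO, against 2.98% of all genes. On the fitted difference 24 of 32 members were above 0, against 51.8% of all genes, and 17 of 32 were above 1, against 8.67%. The median was 1.10 log2, against 0.02. Since UT arrays labelled _2012 share no year with DAP12KO, this difference is that between the 4 arrays of each group labelled _2013.

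Without DAP12KO array 2 the median member difference was 0.20 and 19 of 32 members were above 0, against 49.1% of all genes. Without both DAP12KO array 2 and UT array 6 it was 0.48, with 24 of 32 above 0, against 49.9% of all genes. Without UT array 2, the lowest UT array for several members, the median member difference was 0.68. Set against the mean of the UT arrays labelled _2013, 30 of 32 members were higher on DAP12KO array 2 (median difference 3.36), 21 on array 4 (0.47), 13 on array 1 (−0.27) and 13 on array 5 (−0.19). No member had DAP12KO and UT arrays that did not overlap, against 0.8% of all genes. The arrays left out were chosen after their values were seen.

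**Figure D3:**
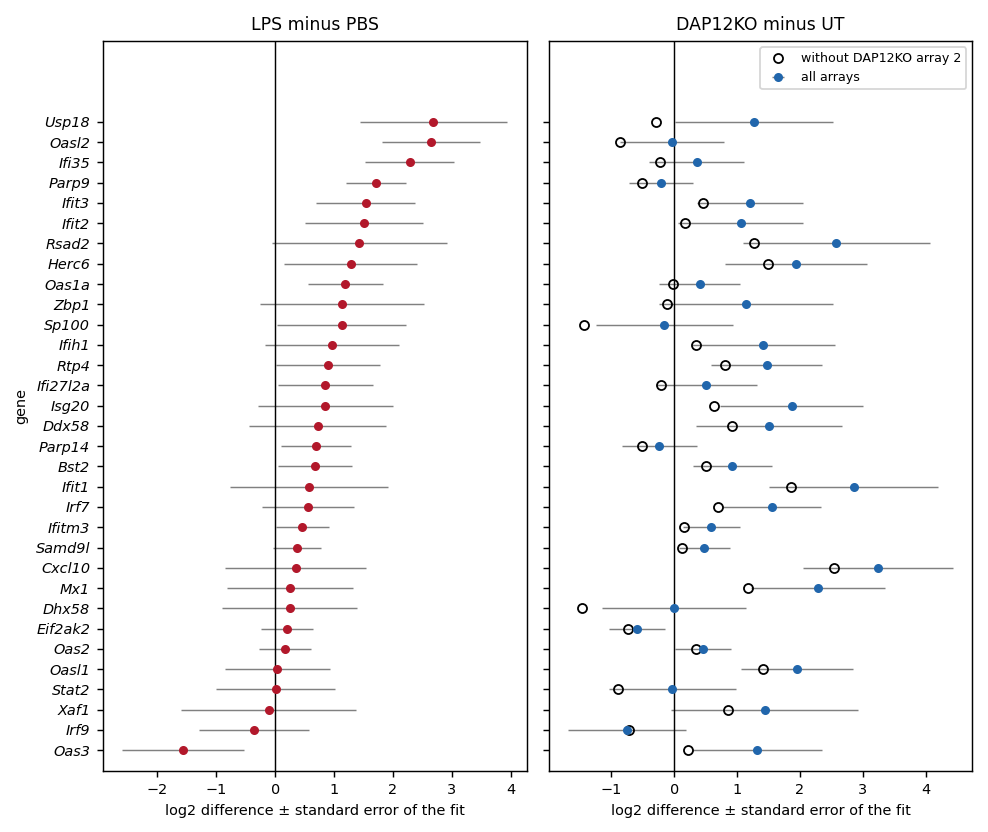
Points give the fitted log2 difference of each of the 32 members, LPS minus PBS (left) and DAP12KO minus UT (right), and lines give the standard error of the fit. Open circles on the right give the difference of the means of the arrays labelled _2013 without DAP12KO array 2, with Cxcl10 moving from 3.24 to 2.54 and Usp18 from 1.27 to −0.30.

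Cxcl10, a chemokine that draws T cells through Cxcr3, had the lowest p of the members. It read 10.68, 13.80, 12.20 and 10.10 on DAP12KO arrays 1, 2, 4 and 5, and over the 6 UT arrays it ran from 4.08 through a median of 9.83 to 11.74. All 4 DAP12KO arrays exceeded the UT median, yet the groups overlapped, since UT array 6 (11.74) lay above DAP12KO arrays 1 and 5, and UT array 2 (4.08) lay far below every other array. The difference was 3.24 ± 1.2 (SE; limma adjusted p = 0.814, and 0.5 to 1 over the fits without single arrays), and it was 1.79 without UT array 2. In the injected groups Cxcl10 was 8.98, 8.41, 7.46 and 9.22 in LPS and 8.96, 6.71, 6.82 and 10.18 in PBS, in the order given for Parp9.

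Oasl1, which restrains translation of Irf7 mRNA, stood well above the floor on all 4 DAP12KO arrays. It read 5.42, 7.73, 5.95 and 5.31 there, whereas UT arrays ran from 2.57 through a median of 2.57 to 7.67. Of the UT arrays, 5 lay below every DAP12KO array and UT array 6 lay just under the highest one. The difference was 1.96 ± 0.89 (adjusted p = 0.896). It was 3.13 without UT array 6, and without DAP12KO array 2 and UT array 6 it was 2.59 between the means of the arrays labelled _2013. In LPS and PBS it stayed between 2.19 and 3.37.

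Mx1, a GTPase of the interferon response, read 7.19, 10.24, 6.39 and 3.70 on DAP12KO arrays 1, 2, 4 and 5, and 3.31, 4.24 and 6.46 as the lowest, median and highest UT array. DAP12KO array 5 lay inside the UT range and array 4 just below UT array 6. The difference was 2.29 ± 1.07 (adjusted p = 0.902), and 1.18 without DAP12KO array 2.

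Ifit1, which binds viral RNA, read 6.52, 11.13, 9.0 and 5.86 in DAP12KO and 2.99, 4.75 and 8.61 as lowest, median and highest UT. Only UT array 6 exceeded DAP12KO arrays 1 and 5 among the arrays labelled _2013. The difference was 2.85 ± 1.34 (adjusted p = 0.902), and 1.85 without DAP12KO array 2.

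Irf7, the factor that amplifies interferon production, was near the floor on 12 of the 18 arrays. It read 2.42, 6.69, 5.31 and 2.19 in DAP12KO, and in UT 2.19, 2.28 and 3.67 (lowest, median and highest). It was thus clearly measured on DAP12KO arrays 2 and 4 and less so on UT array 6 (3.67) and the LPS arrays labelled _2008 and _2013 (3.46 and 3.54). The difference of 1.55 ± 0.78 (adjusted p = 0.908) lies between 2 arrays near the floor and 2 well above it, and it was 0.70 without DAP12KO array 2.

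Rsad2 (viperin), an enzyme that makes an antiviral nucleotide, read 5.82, 11.61, 9.16 and 4.11 in DAP12KO and 3.11, 5.29 and 8.41 in UT (lowest, median, highest). Arrays 2 and 4 were high and arrays 1 and 5 inside the UT range. The difference was 2.58 ± 1.49 (adjusted p = 0.908), and 1.26 without DAP12KO array 2.

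**Figure D4:**
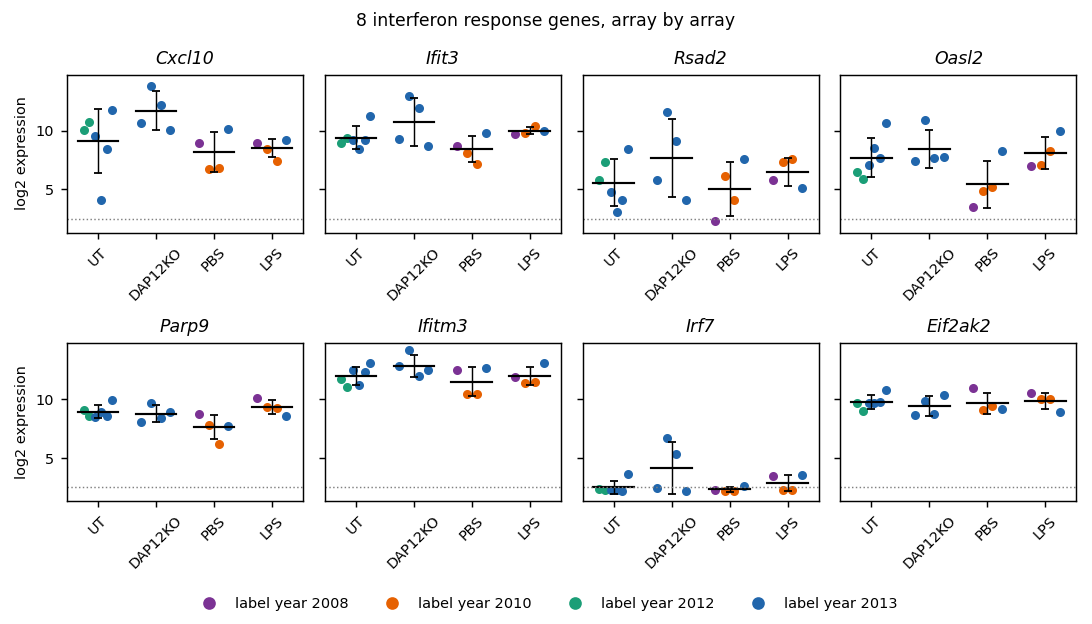
Log2 values of 8 members on each array, by group, coloured by label year, with a black line at the group mean, an error bar of 1 SD and a dotted grey line at the filter threshold of 2.49. DAP12KO array 2 gives the highest point in Cxcl10 (13.80), Ifit3 (12.98), Rsad2 (11.61), Oasl2 (10.89), Ifitm3 (14.18) and Irf7 (6.69), but in neither Parp9 nor the Eif2ak2 probe set used.

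Of the transcription factors of the response, Stat2 was high on the arrays that were high for most members, whereas Irf9 was not high on DAP12KO array 2. Stat2 read 4.93, 8.63, 5.34 and 5.18 in DAP12KO, and 4.74, 5.22 and 9.20 in UT (lowest, median and highest). It was 5.18, 5.09, 7.6 and 4.91 in PBS and 4.46, 6.05, 7.14 and 5.16 in LPS. It was thus high on DAP12KO array 2 and UT array 6, but also on array 2 labelled _2010 in both PBS and LPS, and its differences were 0.01 ± 1.01 (LPS minus PBS) and −0.03 ± 1.01 (DAP12KO minus UT). A second Stat2 probe set of similar mean (5.63, against 5.80; Pearson r = 0.31 over 18 arrays) read 9.08 on DAP12KO array 2 and 9.10 on UT array 6, but only 3.0 and 3.53 on those PBS and LPS arrays. The high values there thus stood in 1 of the 2 probe sets. Irf9, the DNA-binding partner of Stat2, was highest on UT array 6 (10.48, with a UT median of 8.16 and a lowest value of 7.26) and read only 7.62 on DAP12KO array 2, beside 6.80, 8.03 and 8.38 on arrays 1, 4 and 5. In PBS it read 9.29, 6.49, 6.51 and 8.02, and in LPS 4.26, 7.89, 8.33 and 8.37. The LPS array labelled _2008 was the lowest of all, and the differences were −0.36 ± 0.94 and −0.76 ± 0.94.

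Among the sensors of viral RNA, Ifih1 (MDA5) read 3.98, 9.37, 5.23 and 6.09 in DAP12KO and 3.05, 5.02 and 7.54 in UT (lowest, median, highest). In LPS it held to 6.4, 6.69, 6.30 and 6.18, while PBS spread over 5.5, 4.0, 3.75 and 8.46, the last being the second highest of the 18 arrays. Its differences were 0.97 ± 1.14 (LPS minus PBS) and 1.42 ± 1.14 (DAP12KO minus UT; adjusted p = 0.786 and 0.926). The other sensors, Ddx58 (RIG-I) and Dhx58 (LGP2, their regulator), differed by 1.5 ± 1.16 and −0.003 ± 1.14 between DAP12KO and UT. Further probe sets had a Pearson r with the one used of 0.55 and −0.07 for Ddx58 and 0.48 and −0.07 for Dhx58, over 18 arrays. Of the 34 measured genes 13 had further probe sets, 20 in all, and their r ran from −0.07 to 0.72 with a median of 0.40, so values of these genes depend on the probe set.

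Membrane-bound restriction factors were bright in every group. Bst2 (tetherin), which holds budding virions on the cell, read 10.65, 12.15, 11.12 and 9.71 in DAP12KO, and 8.64, 10.36 and 10.99 in UT (lowest, median, highest). In PBS it read 9.86, 7.10, 6.30 and 10.91, and in LPS 9.52, 8.95, 8.0 and 10.41, so that all 4 arrays labelled _2010 lay lower than the rest of their groups. Ifitm3, which blocks virus entry from endosomes, read 12.81, 14.18, 12 and 12.50 in DAP12KO and 11.08, 12.02 and 13.10 in UT, with 12.51, 10.43, 10.48 and 12.64 in PBS and 11.94, 11.42, 11.48 and 13.10 in LPS. The arrays labelled _2010 were again the lowest of each injected group.

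The remaining tested members spanned −1.56 (Oas3) to 1.28 (Herc6) in LPS minus PBS and −0.59 (Eif2ak2) to 1.94 (Herc6) in DAP12KO minus UT. Single arrays stood out for some of them: Oas3 read 8.52 on the PBS array labelled _2008 and 6.99 on DAP12KO array 2 and was near the floor on 14 of 18 arrays, and Samd9l was near it on 14. Mx2 read 3.07 on DAP12KO array 2 and 2.19 on each of the other 17 arrays. Cmpk2, which lies beside Rsad2, read 4.11 on DAP12KO array 2, 3.62 on UT array 6 and at most 2.76 elsewhere. Eif2ak2 (PKR), which halts translation on sensing double-stranded RNA, varied least in step with the rest on the probe set used, where DAP12KO array 2 (9.87) ranked seventh and the PBS array labelled _2008 (11) was highest. On its other probe sets DAP12KO array 2 was the highest array (9.42) and the third highest (10.08).

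The difference between the LPS and DAP12KO responses was tested by itself. No member (0 of 32) and no gene (0 of 11630) passed, with 943 genes (8.11%) and 2 members at an unadjusted p under 0.05. Those 2 members were Parp9 (1.92 ± 0.71, adjusted p = 0.574) and Oasl2 (2.69 ± 1.17, adjusted p = 0.592), both larger in LPS minus PBS.

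The members varied together over the arrays. Over 496 pairs of members the median Pearson r across 18 arrays was 0.45 (Spearman's rho 0.38), against 0.019 for pairs of tested genes, and 95.2% of the pairs were above 0 against 52.3%. These arrays share groups and label years, so correlations over them are a description. After the mean of each group within its year was subtracted (14 arrays with a partner), the median was 0.56, and over the 10 arrays labelled _2013 it was 0.58. Without DAP12KO array 2 it was 0.29, without that array and UT array 6 it was 0.21, and without those and the 2 PBS arrays labelled _2010 it was 0.084, against 0.017 for all genes. Those 4 arrays were chosen after their values were seen.

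**Figure D5:**
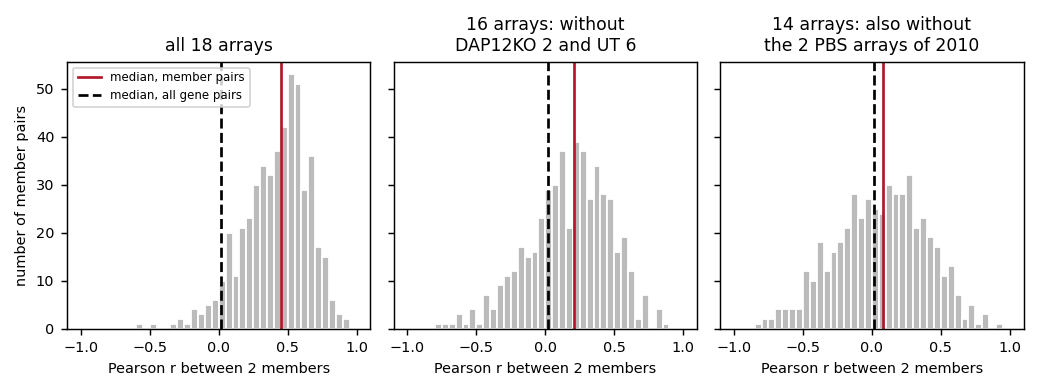
Histograms of the Pearson r of the 496 pairs of members over all 18 arrays (left), 16 arrays (middle) and 14 arrays (right), with the member median in red and the median of all gene pairs dashed. The red line moves from 0.45 to 0.21 and to 0.084 while the dashed line stays between 0.017 and 0.020.

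Some pairs kept a high r without DAP12KO array 2 and UT array 6. Bst2 had r = 0.85 with Ifi27l2a and 0.85 with Ifitm3 over 18 arrays, and 0.83 and 0.82 without those 2 arrays. Irf7 and Isg20, an exonuclease, had the highest r of all pairs (0.94, and 0.85 without them), though both were near the floor on 11 or more arrays. Xaf1 and Irf9 had r = 0.78, and 0.83 without them. Other arrays that stood apart stayed in. Xaf1 and Irf9 were both lowest on the LPS array labelled _2008 (2.51 and 4.26). Bst2 and Ifi27l2a were both lowest on PBS array 2 labelled _2010 (6.30 and 6.00), and Ifitm3 was lowest on the 2 PBS arrays labelled _2010 (10.43 and 10.48). No r of these pairs is given without those arrays. The lowest r was −0.58, between Ifi35 and Eif2ak2 (on both arrays labelled _2008 the former was low and the latter above its median).

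Ifit3 had the highest median r with the other members (0.65), followed by Isg20 (0.60), Irf7 (0.57) and Cxcl10 (0.57), and Eif2ak2 the lowest (0.01). Against Ifit3, 31 relations were computed. Irf7 had r = 0.86 and rho = 0.78, and without the 2 arrays farthest from the median of Ifit3, DAP12KO arrays 2 and 4, r was 0.63. Rsad2 had r = 0.84 and rho = 0.80, and r = 0.67 without those 2 arrays. The median r with Ifit3 was 0.65 over the 31 members and 0.48 without them. With Irf7 in place of Ifit3 the medians were 0.57 and 0.37. No p is given, since the arrays share groups and label years and the members were chosen with results of these arrays known.

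Genes outside the list were ranked by their Pearson r with the mean of the members over the arrays. The 11065 candidates, the tested genes without the members and without predicted or clone names, had a median r of 0.007. The 10 with the highest r were Ccl12 (0.87), Cd72 (0.84), Cfb (0.83), Cd69 (0.83), Psmb9 (0.83), Vill (0.83), Ifi213 (0.82), Gbp2 (0.82), Adgre4 (0.82) and Phf11d (0.81), each over 18 arrays. All 10 were highest on DAP12KO array 2. The member mean was itself highest there (9.93, then 8.30 on UT array 6), so the ranking favoured genes high on that array. Ccl12, a monocyte chemoattractant, read 14.28 there, 13.16 on UT array 6 and 9.15 on its lowest array, and its r was 0.79 without DAP12KO array 2 and UT array 6. Cd69, an early activation marker, read 9.56 on DAP12KO array 2 and was near the floor on 15 arrays, and its r without those 2 arrays was 0.16. For the others the r without them was 0.55 (Cd72), 0.28 (Cfb), 0.64 (Psmb9), 0.75 (Vill), 0.33 (Ifi213), 0.50 (Gbp2), 0.22 (Adgre4) and 0.56 (Phf11d). Adgre4 and Ifi213 were near the floor on 13 and 11 arrays.

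Upstream of the members, the gene for interferon beta stood above the floor on few arrays. Ifnb1 read 6.99 on DAP12KO array 2, 6.94 on DAP12KO array 4 and 4.10 on UT array 6, then 2.86 on the LPS array labelled _2008 and 2.66 on UT array 4 labelled _2012, and 2.19 on each of the other 13 arrays. The first 3 of these arrays are those on which Irf7 was highest. Its difference between DAP12KO and UT was 1.91 ± 0.95 (adjusted p = 0.908), and between LPS and PBS 0.17 ± 0.95 (adjusted p = 0.976). Of 19 ligand genes on the list 10 had a probe set of their own and 4 passed the filter, and 0 of 4 were called in either comparison.

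No gene was called on the other pathway lists either, and their counts above 0 stand beside 42.2% (LPS minus PBS) and 51.8% (DAP12KO minus UT) of all genes. Of 17 tested genes of sensing and induction, 14 were above 0 in LPS minus PBS (median 0.65) and 8 in DAP12KO minus UT (median −0.08). Tlr3, a receptor for double-stranded RNA, differed by 1.60 ± 0.55 (adjusted p = 0.262) and Tlr4, the receptor for LPS, by 0.97 ± 0.43 (adjusted p = 0.366) between LPS and PBS. Of 13 receptors, kinases and feedback genes, 9 were above 0 in each comparison, with medians of 0.16 and 0.15. Ifnar1, a chain of the receptor, differed by 0.82 ± 0.45 (adjusted p = 0.908) between DAP12KO and UT. Of 16 genes best known from interferon gamma, 14 and 13 were above 0, with medians of 0.55 and 0.33. The guanylate-binding protein Gbp2, on that list, differed by 2.39 ± 1.06 between DAP12KO and UT (adjusted p = 0.887), with 10.11 on DAP12KO array 2, 7.96 on array 4, 7.55 on UT array 6 and at most 7.22 elsewhere. Of 35 other interferon-induced genes, 29 and 23 were above 0, with medians of 0.71 and 0.17, and Trim34a differed by 2.09 ± 0.65 between LPS and PBS (adjusted p = 0.216). Without the 2 PBS arrays labelled _2010, LPS minus PBS was above 0 in 8 of the 17 sensing genes (median −0.03) and 1 of the 13 receptor and kinase genes (−0.62). It was above 0 in 8 of the 16 interferon gamma genes (0.06) and 17 of the 35 others (−0.05), against 44.2% of all genes. These counts come from 1 array a group in each of _2008 and _2013, since the LPS arrays labelled _2010 then lack a control of their year. Without DAP12KO array 2, DAP12KO minus UT was above 0 in 7, 8, 7 and 15 of them (medians −0.11, 0.07, −0.14 and −0.10), against 49.1%.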

How the data were processed

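Microglia sorted from pooled embryonic hippocampi were profiled on Affymetrix mouse expression arrays after amplification with Ovation Pico WTA v2, per the labels' protocols. The log2 expression values of 45101 probe sets on 18 arrays were used as deposited by the authors. RMA, which corrects background, normalizes between arrays and summarizes probes, is named in the submitters' processing notes, with no version and no word on whether all arrays were run together. The lowest value on every array was 2.19, where 32.7% to 38.2% of the probe sets of an array stood, and array medians were 2.78 to 3.17. For arrays, their number limits the precision.

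Of the probe sets, 34958 named 1 gene symbol in the platform annotation, 932 several and 9211 none, and the former were used. Genes were kept where their brightest probe set had a mean at or above the 40th percentile (log2 2.49), and a value under it is called near the floor. Groups and label years came from the labels, and what the year marks is not stated there. RNA was pooled per dam, but the labels do not say whether each array is a separate dam, so p-values measure the spread between these arrays. The fit used limma 3.58.1 (R 4.3.3) with group and label year over all arrays, 11 residual degrees of freedom and a variance prior following intensity, and was tested on simulated data. Errors are standard errors of the fit.

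Members named with values on every array were the 6 of lowest p in each comparison, with Irf7, Stat2, Irf9, Isg15, Ifit3, Cxcl10, Ifih1, Bst2 and Ifitm3 (Isg15 had no probe set of its own), up to 3 genes of lowest p for each pathway list, of which some are printed, and the 10 genes most like the member mean. Members and lists were chosen with earlier results of these data known, and so no list was tested. Ifit2, Oas3, Mx2, Cmpk2 and Ifnb1 on single arrays were named after their values were seen, and Ifit3 replaced Irf7 as the reference gene for the correlations because Irf7 was mostly near the floor. Alternatives covered the year term, filters, probe set choice, centring, array weights, marker covariates and leaving out arrays.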

Additional observations from a re-analysis of the deposited data

Results flagged for a closer look

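Single arrays that stood apart from their group by Dixon's criterion were found in 28 of 128 sets of values (32 members in 4 groups). Chance flags about 1 in 20, and over all tested genes the share was 18.9% in UT, 15.6% in DAP12KO, 12.7% in PBS and 16.8% in LPS, against 10, 4, 8 and 6 of the 32 members. All values are log2.

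UT array 6 was the highest of the UT arrays for Ifit3 (11.26), Irf7 (3.67), Usp18 (5.0), Oasl1 (7.67), Isg20 (5.28) and Stat2 (9.20). Other UT arrays stood apart for Oas2 (3.85) and Parp14 (11.67) on array 2, for Oas3 (2.92) on array 1 labelled _2013, and for Samd9l (3.85) on array 3 labelled _2012, each as the highest.

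DAP12KO array 2 was the highest of its group for Usp18 (8.99), Oasl2 (10.89), Stat2 (8.63) and Sp100 (9.61).

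In the PBS group the array labelled _2013 was highest for Mx1 (4.95), Usp18 (2.63) and Isg20 (2.94). The PBS array labelled _2008 was highest for Oas3 (8.52) and lowest for Ifi35 (2.28). PBS array 2 labelled _2010 was highest for Stat2 (7.6, on the probe set used but not on the second one) and lowest for Oas2 (2.19) and Samd9l (2.20). All PBS values of Samd9l were near the floor.

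In the LPS group the array labelled _2008 was lowest for Ifit1 (2.72), Irf9 (4.26), Ifi35 (6.75) and Xaf1 (2.51) and highest for Samd9l (3.70). LPS array 1 labelled _2010 was highest for Oas3 (2.29), all 4 values being near the floor.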

How the results depend on the processing

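No member passed in either comparison or in the difference between the responses under any alternative run, except Parp9 in LPS minus PBS with array weights. That fit called 1 of 32 members, against 826 of 11630 genes. The 6 members of lowest p in each comparison kept the sign of that comparison's difference under every alternative in which they were fitted. Other members did not, and Usp18 in DAP12KO minus UT went from 1.27 to −0.30 and Ifi35 from 0.35 to −0.22 between the means without DAP12KO array 2. The count of all genes called in LPS minus PBS, 11 in the report, was 0 without the year term, with only the arrays of the groups compared, with the filter at the 60th percentile, with arrays centred on their medians, with the neuron markers as a covariate and without DAP12KO array 2 and UT array 6. It was 1 with no filter on low values, 3 with low values set to the threshold, 5 without all arrays labelled _2010, 6 with the mean of all probe sets of a gene and 826 with array weights (231 higher and 595 lower). Fits that left out single arrays gave 0 to 120: 120 or 119 without the PBS or LPS array labelled _2013, 77 or 79 without those labelled _2008, 4 and 5 without DAP12KO arrays 1 and 5, and 0 or 1 otherwise. The same fits gave 0 to 6 genes for DAP12KO minus UT, with 6 without DAP12KO array 5, 4 without UT array 1 and 2 without UT array 6 or DAP12KO array 4. They gave 0 to 18 for the difference between the responses, with 18 without the PBS or LPS array labelled _2013, 9 without those labelled _2008 and 1 without DAP12KO array 4. For that difference, 1 gene was called without a filter, 1 with the mean of all probe sets and 11 with array weights. Centring raised the share of all genes above 0 in LPS minus PBS from 42.2% to 58.1% and their median from −0.12 to 0.15, with 30 of 32 members above 0 and a member median of 0.97. Leaving out single arrays gave member medians of 0.46 to 0.92 for LPS minus PBS and 0.20 to 1.53 for DAP12KO minus UT. Same-numbered arrays of a label year deviated from their group means with r of 0.38 and 0.44 (LPS and PBS, labelled _2010) and 0.02 and −0.01 (DAP12KO and UT, labelled _2013). The labels do not say that a number marks a shared litter or batch and each comparison has only 2 such pairs, so the numbers were not taken as a pairing. A replicate block gave 0 members called, with 0.72 and 1.13 as member medians in the 2 comparisons, and 13 genes called in LPS against PBS and 0 both in DAP12KO against UT and in the test between the responses. The median pairwise r of 0.45 was 0.29 without DAP12KO array 2, 0.21 also without UT array 6 and 0.084 also without the 2 PBS arrays labelled _2010. The promoter motif stood in 61.5% of member genes (23.9% of all) when searched as AANNGAAA and in 57.7% (9.76% of all) when the search took in the first 50 bases after the start. Values near the floor carry no order, and the alternatives that leave out the arrays standing apart were added after the data were seen.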
